A study of Mus musculus with 4 samples.

Results

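The gentamicin response of hair cells was taken as the comparison of the 3 gentamicin-treated hair cell replicates (HC_Gentamicin) with the 3 untreated hair cell replicates (HC_Control), which are 6 of the 12 replicates measured. The description covers programs outside JNK, NF-κB, heat shock, NRF2, apoptosis, excision repair and Notch signaling, and each gene was placed by whether untreated hair cells or untreated non-hair cells held more of its RNA. Cochleae of postnatal day 1 Atoh1-GFP transgenic mice on a CD-1 background were cultured overnight under low oxygen, and then either left untreated or exposed to 0.5 mM gentamicin for 3 h. GFP-positive hair cells were sorted from GFP-negative non-hair cells by flow cytometry, and polyadenylated RNA was sequenced. All 4 groups carry the reporter, whose Atoh1 enhancer drives GFP in hair cells and at a low level in inner phalangeal cells, and the sort gate was set to leave out weakly fluorescent cells. The non-hair cell groups (NHC_Control and NHC_Gentamicin) hold GFP-negative cells of the explant, and serve here to place genes and to test differences between responses. All 4 groups were fitted together, so the spread of the non-hair cell replicates also enters the p-values of the hair cell comparison. The study calls the 3 replicates of a group biological replicates without saying whether they came from separate cultures, so p-values measure the spread between these samples.

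Gentamicin is an aminoglycoside antibiotic that binds ribosomal RNA and enters hair cells through the mechanotransduction channel of the hair bundle. Inner ear hair cells convert sound-evoked deflection of this bundle into transmitter release at ribbon synapses, and in mammals they are not replaced when lost. A cell makes ribosomes in the nucleolus from ribosomal RNA, ribosomal proteins and a large set of assembly factors. Stress that leads to phosphorylation of the initiation factor eIF2 favors translation of the transcription factor ATF4, which induces genes for amino acid supply and for recovery of translation. Sterol synthesis genes are induced by the transcription factor SREBP2 when membranes hold little cholesterol.

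Per hair cell replicate, between 22401091 and 26950044 reads fell on genes. Levels are given as normalized read numbers, which are reads scaled per replicate with 1 added, so a gene without reads is at 1 and a fold change of a weakly expressed gene is understated. Of 16081 genes tested, 4418 (27.5%) passed at p under 0.01 before adjustment together with a fold change over 1.2, and only these are said to rise, fall or change. Of these, 2037 (12.7% of the genes tested) rose and 2381 (14.8%) fell. The Benjamini-Hochberg adjusted p of a changed gene was at most 0.0347 with limma. Most changes were small, with a median absolute log2 fold change of 0.56, and 183 genes rose and 304 fell by more than 2-fold. The median log2 fold change of all genes tested was -0.09. The 3 treated replicates all lay above the 3 controls for 21.7% of the genes tested and all below them for 33.1%, which is the background for statements that groups did not overlap. Scaling by the total in place of the deposited scaling moved the split to 2774 higher and 1591 lower, so directions of small changes depend on the scaling.

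The cells were checked by hair cell genes. Atoh1, the transcription factor that specifies hair cells, was at 223, 190 and 215 in HC_Control and at 288, 296 and 304 in HC_Gentamicin, and the difference did not pass the criteria (log2 fold change 0.50 ± 0.20 SE, limma adjusted p = 0.0703), although it did when the hair cell groups were fitted alone. Myo6 (-0.08) and Myo7a (-0.26), which encode unconventional myosins of the hair bundle, did not pass either. Of the 11 hair cell markers 0 passed by limma, and their summed level was 12993 to 13359 in HC_Control and 10797 to 12138 in HC_Gentamicin.

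RNA of genes used as markers of other cell types was present in the hair cell replicates. The summed level of 9 mesenchymal markers was 526 to 777 in HC_Control and 356 to 440 in HC_Gentamicin, with HC_Control replicate 2 the highest and Col1a2 and Col3a1 falling. The sum of 10 supporting cell markers was 3267 to 4114 in HC_Control and 1614 to 3696 in HC_Gentamicin, with overlap, and Gjb2 fell. For 4 markers of Schwann cells and glia the sums were 165 to 207 and 76.9 to 139, and for 6 endothelial markers 35.3 to 49.7 and 27.0 to 36.8. Of these, Sox10, Mbp and Cdh5 fell. Supporting cell markers summed to 3769 to 7258 and mesenchymal markers to 5946 to 8380 in NHC_Control. Sums of 4 markers of spiral ganglion neurons (952 to 1133 and 905 to 1061) overlapped, and were 425 to 1160 in NHC_Control. Melanocyte markers summed to at most 6.91 in a replicate and macrophage markers to at most 5.99, and erythroid markers reached 13.9 in HC_Gentamicin replicate 2 and at most 2.14 in the other 5 replicates. In sorted populations fewer cells of a type and less RNA per cell cannot be told apart. Of the 10 supporting cell markers 8 were shared by the division given below, and expression of these markers by hair cells themselves was not tested.

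HC_Gentamicin replicate 3 stood apart from the other treated replicates in hypoxia and glycolysis genes. Car9, the carbonic anhydrase that is a classical target of hypoxia-inducible factor, was at 65.0, 79.7 and 68.8 in HC_Control and at 44.2, 22.3 and 1.39 in HC_Gentamicin. Slc16a3, a lactate exporter, was at 128, 144 and 110 in HC_Control and at 89.8, 41.6 and 5.03 in HC_Gentamicin. Both genes were lower in every treated replicate, by very different amounts, and neither passed the criteria. The glycolytic enzyme Pgk1 followed the same order, with 488, 561 and 456 in controls and 315, 190 and 66.7 in treated cells. All 10 hypoxia targets and all 22 glycolysis genes had a negative log2 fold change, with medians of -1.61 and -1.10, yet 1 member of each list fell by the criteria. Those members were P4ha2, a collagen prolyl hydroxylase (-1.78), and the phosphofructokinase gene Pfkm (-0.40), and both calls were lost without HC_Gentamicin replicate 3 and without HC_Control replicate 1 or 2. The P4ha2 call was kept in 2 and the Pfkm call in 1 of 6 fits that left out a replicate. Without HC_Gentamicin replicate 3 the medians were -0.89 and -0.66. With the hair cell groups fitted alone, 4 hypoxia targets and 8 glycolysis genes fell. In non-hair cells NHC_Gentamicin replicate 2 was the low one, with Car9 at 6.90 against 101 and 78.2 in the others. The study kept all cultures overnight under low oxygen before treatment. The part of gentamicin and of culture conditions in this pattern was not tested.

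**Figure D1:**
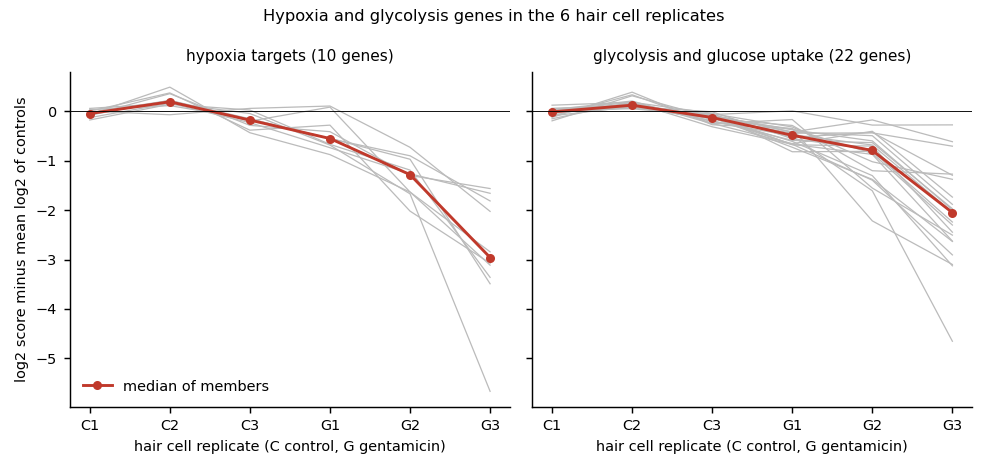
Log2 normalized read number of each hypoxia target (left) and each glycolysis or glucose uptake gene (right) minus the gene's mean log2 level in HC_Control, for the 3 control (C) and 3 gentamicin (G) hair cell replicates. Grey lines are genes and red points are the median of the list, which reaches -2.96 and -2.05 in HC_Gentamicin replicate 3.

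Genes were divided by HC_Control against NHC_Control into 2197 native to hair cells, 3607 non-hair cell genes and 10277 shared genes, at an adjusted p under 0.05 and a log2 difference of at least 1. This division uses the same HC_Control replicates as the drug comparison, so the counts are a description. Native genes rose in 223 cases (10.2%) and fell in 296 (13.5%). Of the shared genes 1724 (16.8%) rose and 1281 (12.5%) fell. Of the non-hair cell genes 90 (2.5%) rose and 804 (22.3%) fell, and their median log2 fold change was -0.32, against -0.08 for native and -0.02 for shared genes. Without HC_Control replicate 2, the control with the highest sum of mesenchymal markers, 472 non-hair cell genes fell and the median of the class was -0.26. The fall of non-hair cell genes ran alongside the lower marker sums of mesenchyme and glia given above, and the part of these cells in it was not tested.

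**Figure D2:**
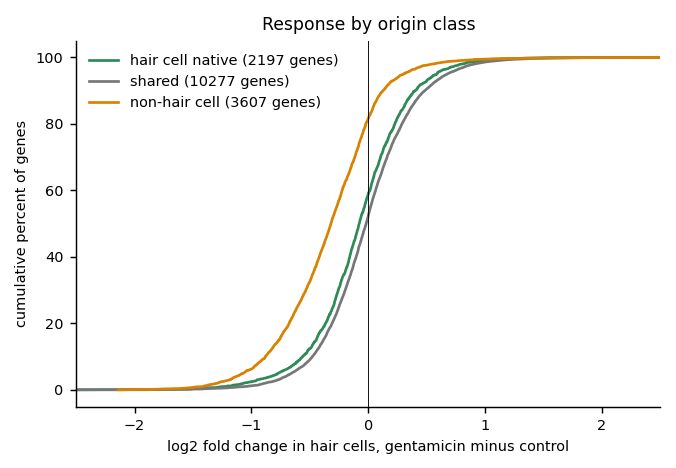
Cumulative percent of genes (vertical axis) against the log2 fold change of hair cells, gentamicin minus control (horizontal axis, shown from -2.5 to 2.5), for genes native to hair cells, shared genes and non-hair cell genes. The curve of non-hair cell genes lies to the left, with a median of -0.32, and those of native and shared genes nearly coincide at medians of -0.08 and -0.02.

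Among native genes the strongest rises were in histone genes. Hist1h1e, which encodes a linker histone, was at 3.53, 3.45 and 2.92 in HC_Control and at 17.1, 21.5 and 23.2 in HC_Gentamicin (log2 fold change 2.64 ± 0.14 SE, adjusted p = 5.16e-06). Treated replicates lay far above the controls, and in non-hair cells all 6 replicates were at or below 1.81. The linker histone genes Hist1h1c (1.99) and Hist1h1d (1.57) and the histone H3 gene Hist2h3c1 (1.49) followed. Next came 4930447K03Rik (1.45) and Ddx31 (1.35), which encodes an RNA helicase of the nucleolus. Of 29 replication-dependent histone genes tested, 12 rose (41.4%, against 12.7% of all genes) and 1, the H2B gene Hist2h2be (-0.48), fell, with a median of 0.35. Without HC_Control replicate 3, 8 rose. Histone mRNAs of this kind normally lack a poly(A) tail, and these libraries were made from polyadenylated RNA. Genes of this family are near-identical copies, so the division of reads among them is uncertain.

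Native genes that fell most were 1700071M16Rik, at 55.8, 54.8 and 68.9 in HC_Control and 8.84, 10.4 and 9.44 in HC_Gentamicin (-2.64 ± 0.17 SE, adjusted p = 8.62e-06), and Htr2a, a serotonin receptor gene. Htr2a stood at 51.4, 65.1 and 63.0 in controls and at 13.7, 16.9 and 11.6 after treatment (-2.10 ± 0.20 SE). In non-hair cells its log2 fold change was 0.28, at levels of at most 2.30. Fam43a (-1.88), 4930474M22Rik (-1.79), Gm3893 (-1.55) and AI450353 (-1.52) completed the group.

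Genes of specialised hair cell functions changed one by one. In the lists of this paragraph at most 8% of members rose and 16.7% fell, against 12.7% and 14.8% of all genes. Of 18 hair cell transcription factors, 1 rose (Rfx3, a regulator of ciliary genes, 0.45) and 1 fell (Nr2f1, a nuclear receptor, -0.50). Of 18 genes of mechanotransduction and bundle links, which are all native, 0 rose and 3 fell, with a median of -0.21. Among them was the calcium-binding protein gene Cib2 (-0.29), chosen after its value was seen. Another was Piezo2, a mechanically gated channel, at 187, 169 and 161 in controls and 92.2, 81.4 and 123 after treatment (-0.82 ± 0.19 SE, adjusted p = 0.00676). Between 1 and 2 of these 18 genes fell in fits that left out a replicate, and 1 fell when scaled by the total. Of 25 genes of the stereocilia core and myosins, 2 rose, the class III myosin gene Myo3a (0.69) and the actin-binding Xirp2 (0.48), and 4 fell, led by the bundling proteins Fscn1 (-1.40) and Pls3 (-0.87), which were classed as non-hair cell genes. Without HC_Control replicate 2, 1 rose and 2 fell. Of 15 ribbon synapse genes 1 rose and 1 fell. Ctbp2, whose locus also encodes the ribbon protein RIBEYE, was at 236, 236 and 218 in HC_Control and 312, 394 and 360 in HC_Gentamicin (0.62 ± 0.09 SE, adjusted p = 0.000423), and Bsn, the scaffold protein Bassoon, had a log2 fold change of -1.16 (adjusted p = 0.0343), a call lost without any 1 replicate and under median-of-ratios scaling.

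Few ion channel genes changed, with 4.8% of the list higher and 9.5% lower, against 12.7% and 14.8% of all genes. Of 21 channel, efferent receptor and calcium handling genes, 1 rose (Kcnn2, the SK2 potassium channel of efferent synapses, 0.60) and 2 fell, Ache, the acetylcholine esterase (-2.15), and the T-type calcium channel gene Cacna1h (-2.07). The Kcnn2 and Ache calls were both lost without HC_Control replicate 2, the Kcnn2 call also without HC_Gentamicin replicate 2 and the Ache call without HC_Gentamicin replicate 3, and Cacna1h is a non-hair cell gene with its highest value, 47.9, in that replicate against 24.7 and 21.5 in the other controls. Of 27 genes of cilium transport, 1 rose (3.7%), the Bardet-Biedl gene Bbs4 (0.53). The intraflagellar transport genes Ift52 (-0.44) and Ift140 (-0.39) were the 2 that fell (7.4%). Of 20 neuronal cytoskeleton genes, 0 rose and 4 fell (20%), with a median of -0.60. All 4 were non-hair cell genes, among them Mapt, which encodes tau (-2.14), and Dcx, doublecortin (-1.56). Without HC_Control replicate 2, 2 of the 20 fell, and the Mapt and Dcx calls were lost. With the hair cell groups fitted alone 13 fell. In non-hair cells the median was -0.82 with 2 of the 20 positive, 0 passed the criteria, and by the interaction test 0 differed between the populations.

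Ribosome assembly was the program with the largest share of members higher. Of 85 ribosome biogenesis factors tested, 59 rose (69.4%, against 12.7% of all genes) and 1 fell, and 78 had a positive log2 fold change, with a median of 0.38. Gnl3, nucleostemin, was at 20.7, 22.2 and 21 in HC_Control and at 44.9, 51.6 and 39.9 in HC_Gentamicin (1.09 ± 0.10 SE, adjusted p = 5.58e-05). Wdr43, a component of the small subunit processome, was at 50.5, 49.0 and 48.9 in controls and 100, 110 and 97.9 after treatment (1.05 ± 0.07 SE, adjusted p = 1.1e-05). Treated values were about double the controls in every replicate of both genes. Brix1 (0.99) and Rpf1 (0.97), factors of the large subunit, and Nop58 (0.96), a core protein of box C/D small nucleolar particles, were next, and Imp3, a small subunit factor, was the one that fell (-0.38). The 4 native members rose, as did 55 of 79 shared members. Leaving out 1 replicate left between 47 and 56 members higher, and scaling by the total gave 65.

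Ribosome assembly genes also rose in non-hair cells. There 35 of the 85 rose and 0 fell, with a median of 0.25, where 3.18% of all genes rose and 2.26% fell. The response of hair cells was higher by the interaction test for 21 of the 85 and lower for 0, where 6.85% of all genes were higher in hair cells. Between 12 and 20 were higher when a replicate was left out, the fewest without HC_Control replicate 2. Gnl3 was at 39.6, 42.1 and 35.1 in NHC_Control and 38.1, 38.1 and 41.2 in NHC_Gentamicin, and its interaction was 1.08 (adjusted p = 0.00204).

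**Figure D3:**
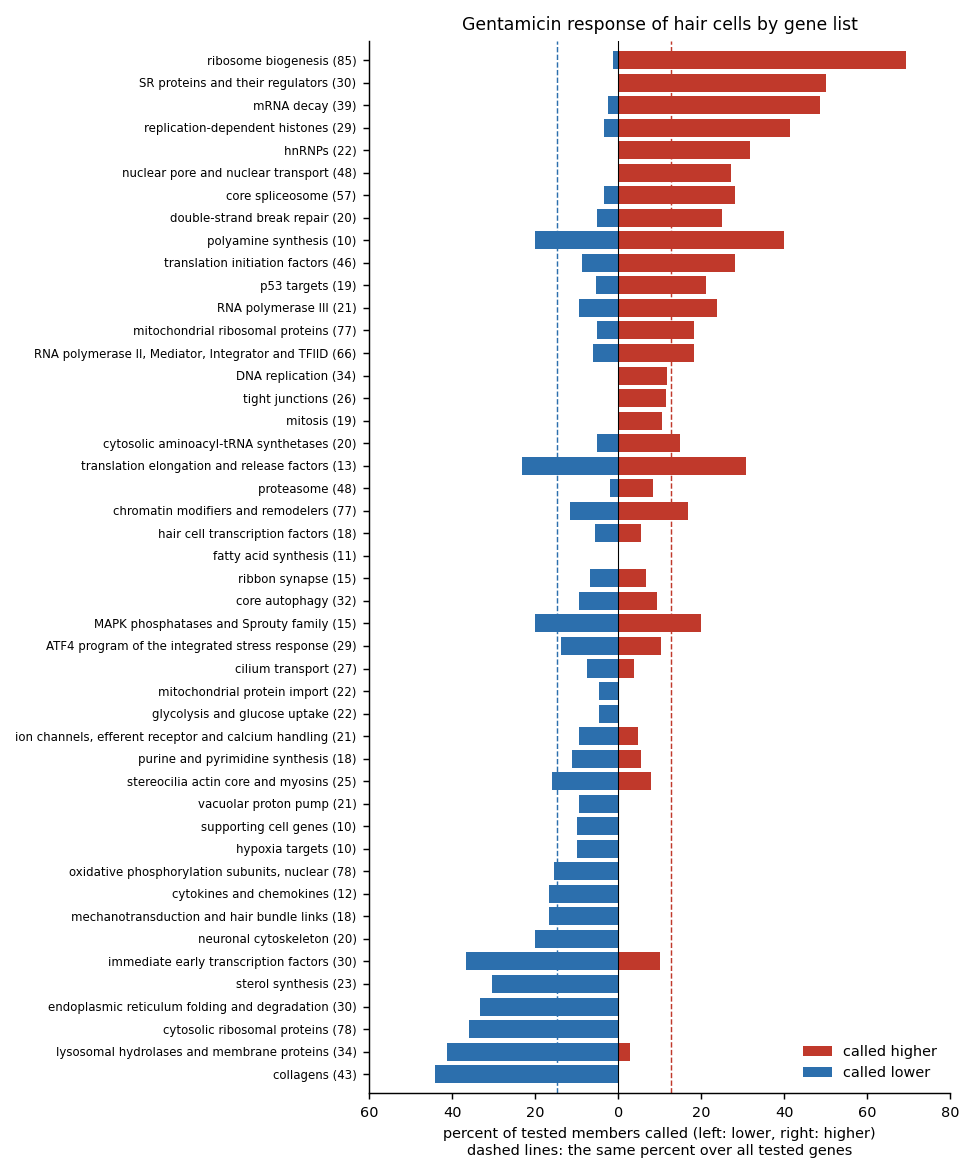
Percent of tested members called higher (red, to the right) or lower (blue, to the left) in hair cells after gentamicin, for each gene list with its number of tested members in parentheses. Dashed lines mark the same percent over all 16081 genes, 12.7% higher and 14.8% lower. Ribosome biogenesis has the longest red bar (69.4%) and collagens the longest blue one (44.2%).

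Proximal promoters of the assembly genes that rose are shown because these genes moved together. The 120 bases before the annotated start are printed 5′ to 3′ on the gene's strand from RefSeq (GRCm38.p6, the assembly also called mm10), in lower case, with every match of the 8-base word CCGGAAGT on either strand in capitals. This word is among the sites that ETS family transcription factors bind, so a promoter without it can still hold such a site. The 4 genes are examples of assembly genes that rose, could be matched to a promoter and hold the word in these 120 bases. Not every assembly gene was open to this choice, so the 4 need not be those with the largest rise. They lie at chr12:17348373-17348492 on the plus strand, chr13:12395255-12395374 on the plus strand, chr10:40247040-40247159 on the minus strand and chr3:129831397-129831516 on the minus strand.
Nol10: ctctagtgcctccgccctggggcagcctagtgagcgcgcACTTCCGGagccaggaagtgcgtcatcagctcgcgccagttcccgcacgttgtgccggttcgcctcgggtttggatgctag
Heatr1: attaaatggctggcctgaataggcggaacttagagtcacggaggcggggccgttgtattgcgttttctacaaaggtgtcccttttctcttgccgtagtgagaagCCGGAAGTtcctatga
Rpf2: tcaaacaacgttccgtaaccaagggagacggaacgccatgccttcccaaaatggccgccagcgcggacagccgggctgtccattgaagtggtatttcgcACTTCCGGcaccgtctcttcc
Gar1: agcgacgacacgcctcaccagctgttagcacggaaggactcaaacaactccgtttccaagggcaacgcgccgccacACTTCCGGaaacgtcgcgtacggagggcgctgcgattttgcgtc
Their log2 fold changes were 0.80 (Nol10), 0.60 (Heatr1), 0.51 (Rpf2) and 0.50 (Gar1). The word began at position -81, -16, -21 and -44 from the start in this order. Promoters could be matched for 71 of the 85 assembly genes, and in the 250 bases before the start 13 of these (18.3%) held CCGGAAGT, against 5.12% of the 11654 tested genes with a promoter. Among the 51 assembly promoters of genes that rose the share was 19.6%, and among the 20 of genes that did not rise it was 15.0%. Over all genes it was 9.76% of those that rose and 3.31% of those that fell. Other lists held the word often too, at 25% of 28 DNA replication promoters and 18.8% of 16 of double-strand break repair. Cytosolic ribosomal protein genes, which were lower, held it in 14.0% of 57 promoters. Collagens (34 promoters) and lysosomal genes (26 promoters) held it in 0. Of 3 further words searched in the same way, the E-box CACGTG was in 8.45% of assembly promoters against 7.98% of all, CCAAT in 35.2% against 35.7%, and the cyclic AMP response element TGACGTCA in 2.82% against 2.65%.

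In contrast to the assembly factors, the genes of the ribosomal proteins themselves were lower. Of 78 cytosolic ribosomal protein genes, 76 had a negative log2 fold change, with a median of -0.45, and 28 fell by the criteria (35.9%, against 14.8% of all genes). Rps4x, a protein of the small subunit, was at 583, 577 and 526 in HC_Control and 404, 343 and 348 in HC_Gentamicin (-0.63 ± 0.16 SE, adjusted p = 0.0139), and its call was lost without HC_Control replicate 1 or 2 or HC_Gentamicin replicate 2 or 3. The 2 exceptions had log2 fold changes of 0.21 (Rpl34) and 0.32 (Rpl30), and did not pass. In HC_Gentamicin the median of the list was -0.26, -0.52 and -0.53 in the 3 replicates. At an unadjusted p under 0.05, 72 of the 78 differed. The count at the criteria used here moved strongly. It was 2 without HC_Control replicate 2, 1 without HC_Gentamicin replicate 3, up to 42 without another replicate, 5 when scaled by the total and 71 when the hair cell groups were fitted alone. The median stayed between -0.53 and -0.35 in these fits. In non-hair cells the median was -0.07 and 0 fell, and by limma's interaction test 0 of the 78 differed between the populations at an adjusted p under 0.05 and 6 at an unadjusted p under 0.05. Many of these genes have processed pseudogenes that share their sequence, so their read numbers carry that uncertainty.

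The most abundant elongation factors fell. Eef1a1, which brings aminoacyl-tRNA to the ribosome, was at 4824, 4780 and 4457 in HC_Control and 2558, 2042 and 2382 in HC_Gentamicin (-1.02 ± 0.22 SE, adjusted p = 0.00566). Eef2, the translocase, was at 3009, 3153 and 2898 and then at 1736, 1675 and 1613 (-0.85 ± 0.15 SE, adjusted p = 0.00144). Groups did not overlap for either gene. In the same list of 13 genes, 4 rose (30.8%), including the release factor Etf1 (0.45) and the ribosome rescue factor Pelo (0.40), and 3 fell (23.1%). Of 46 initiation factors, 13 rose (28.3%, against 12.7% of all genes) and 4 fell (8.7%, against 14.8%). Eif2b2, a subunit of the eIF2 exchange factor (0.65), and Eif1, which guards start codon choice (0.58), rose, and the eIF3 subunits Eif3f (-0.57) and Eif3h (-0.42) fell. The Eif3h call was kept in 2 of 6 fits that left out a replicate and lost when scaled by the total. Without HC_Control replicate 2 or HC_Gentamicin replicate 3, 2 fell. Among 20 cytosolic aminoacyl-tRNA synthetases 3 rose (15%), including the arginine and threonine enzymes Rars (0.43) and Tars (0.37), and the glutamine enzyme Qars fell (-0.48). Of 77 mitochondrial ribosomal proteins 14 rose (18.2%), led by Mrpl1 (0.84) and Mrps22 (0.72), and 4 fell (5.2%), led by Mrpl14 (-0.61) and Mrpl23 (-0.47).

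**Figure D4:**
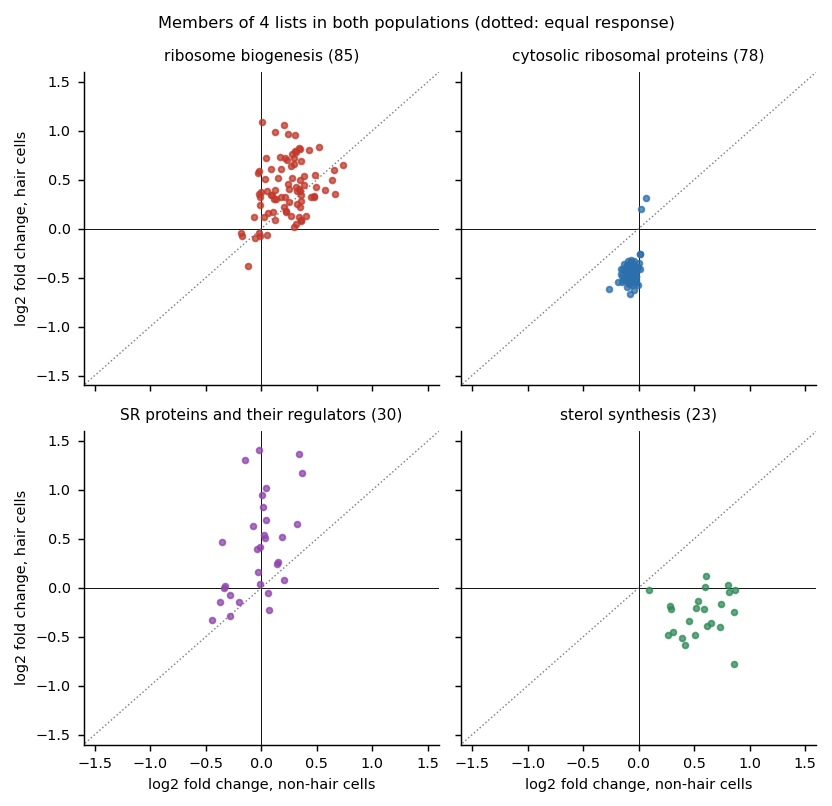
Log2 fold change with gentamicin of the members of 4 lists in non-hair cells (horizontal axis) and hair cells (vertical axis), each point a gene, with the dotted line marking an equal response. Ribosome biogenesis genes lie mostly above the line in the upper right, cytosolic ribosomal protein genes cluster near -0.45 in hair cells and -0.07 in non-hair cells, SR protein genes spread upwards, and sterol synthesis genes lie to the lower right, with medians of -0.21 and 0.58.

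The RNA processing machinery was the next large group to rise. SR proteins are splicing factors rich in arginine and serine whose activity depends on phosphorylation. Of 30 SR protein genes and regulators, 15 rose (50%) and 0 fell, with a median of 0.40, and leaving out a replicate left 15 to 16 higher. Clk4, a kinase of SR proteins, was at 33.0, 32.5 and 37.5 in HC_Control and 96.9, 100 and 77.5 in HC_Gentamicin (1.41 ± 0.11 SE, adjusted p = 2.10e-05). Tra2b, a splicing activator, was at 92.8, 89.7 and 102 and then at 251, 265 and 218 (1.37 ± 0.11 SE). The response was higher in hair cells by the interaction test for 12 of the 30, including Clk4 (interaction 1.43, adjusted p = 0.000876), and lower for 0. In non-hair cells the median of this list was -0.01, with 3 higher and 5 lower.

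Other groups of RNA-binding proteins rose as well, by the share of members higher against 12.7% of all genes. The shares were 28.1% for the core spliceosome, 31.8% for hnRNPs, 48.7% for mRNA decay and 27.1% for nuclear pore and transport. In this order the medians were 0.14, 0.12, 0.31 and 0.11 in hair cells and 0.15, 0.21, 0.07 and 0.18 in non-hair cells. In non-hair cells 8, 5, 6 and 6 members rose and 0 fell, where 3.18% of all genes rose. By the interaction test 8, 3, 5 and 6 responses were higher in hair cells and 3, 1, 1 and 2 lower. Of 57 core spliceosome genes 16 rose, including Sf3b3 (0.86) and Snrnp48 (0.77), and 2 fell, the U1 components Snrpa (-0.68) and Snrnp70 (-0.39). Of 22 hnRNP genes 7 rose and 0 fell. Ptbp2, a splicing repressor known from neurons, was at 35.0, 32.2 and 44.1 in HC_Control and 115, 128 and 96.5 in HC_Gentamicin (1.61 ± 0.13 SE, adjusted p = 2.85e-05), and Hnrpdl rose by 1.03. Of 39 mRNA decay genes 19 rose and 1 fell, with a median of 0.31. Upf2, a nonsense-mediated decay factor (0.83), and Cnot4, an ubiquitin ligase of the CCR4-NOT deadenylase (0.82), led, and Cnot8, a deadenylase subunit, was the faller (-0.27). Its call was lost when scaled by median of ratios. Of 48 genes of the nuclear pore and nuclear transport 13 rose and 0 fell, led by the importin Kpna1 (0.84) and the nucleoporin Nup35 (0.81).

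The transcription machinery changed gene by gene. Ppp1r10, which targets protein phosphatase 1 to chromatin and acts in transcription termination, was at 97.7, 96.2 and 104 in HC_Control and 388, 569 and 403 in HC_Gentamicin (2.17 ± 0.19 SE, adjusted p = 4.23e-05). Among 66 genes of RNA polymerase II, Mediator, Integrator and TFIID 12 rose (18.2%, against 12.7% of all genes) and 4 fell (6.1%, against 14.8%). Med26, a Mediator subunit that recruits elongation factors (1.29), and the Integrator subunit Ints6 (0.85) rose, and Med1 (-0.44) and Med12 (-0.32) fell. Scaled by the total, 23 rose and 1 fell, and the Med12 call was lost, as it was in 3 of 6 fits that left out a replicate. Of 21 RNA polymerase III genes 5 rose (23.8%), including Brf2 (0.60) and Polr3b (0.57), and 2 fell (9.5%), Polr3e (-0.40) and the repressor Maf1 (-0.35). Without HC_Control replicate 1 or 2, 2 rose, and without HC_Gentamicin replicate 3, 3 rose. Among 77 chromatin modifiers and remodelers 13 rose and 9 fell, close to the background in both directions, with the acetyltransferase gene Kat5 (0.77) and the Polycomb gene Eed (0.68) at one end and the methyltransferase gene Mll2 (-0.92) and Smarcd3 (-0.67) at the other.

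Stress transcription factors rose, and their response differed from that of non-hair cells. Atf4 was at 186, 211 and 183 in HC_Control and 651, 757 and 608 in HC_Gentamicin (1.80 ± 0.11 SE, adjusted p = 8.62e-06). It was at 272, 292 and 242 in NHC_Control and 257, 236 and 294 in NHC_Gentamicin, and the interaction was 1.83 (adjusted p = 0.000338). Ddit3, which encodes CHOP, was at 26.2, 29.4 and 24.0 in HC_Control and 68.3, 82.8 and 67.3 in HC_Gentamicin (1.46 ± 0.14 SE, adjusted p = 5.58e-05). Its level in non-hair cells had a log2 fold change of -0.43, so the interaction was 1.88 (adjusted p = 0.000652). Ppp1r15a, the eIF2 phosphatase subunit GADD34, was the third and last of the 29 genes of the ATF4 list to rise (0.79). The share of this list that rose was 10.3%, against 12.7% of all genes.

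Well known targets of ATF4 did not all follow. The log2 fold changes of Asns, asparagine synthetase, Chac1, a glutathione-degrading enzyme, and Trib3, a pseudokinase, were -0.18, -0.10 and -0.88, and none passed. Asns was at 86.4, 88.9 and 78.7 in HC_Control and 78.2, 86.3 and 61.1 in HC_Gentamicin, so its groups overlapped. In the list 4 genes fell, Vldlr, a lipoprotein receptor (-1.38), the stress protein gene Nupr1 (-0.93), Sesn2 (-0.70) and Pycr1 (-0.61), of which Sesn2 and Pycr1 were chosen after their values were seen. The Vldlr call was lost without HC_Gentamicin replicate 3, and 2 of the 29 fell then, with 4 higher. The median of the list was -0.10, and the 13.8% that fell was near the 14.8% of all genes. By the interaction test 5 of the 29 responses were higher in hair cells, where 6.85% of all genes were, and 0 lower. In non-hair cells the median of the list was -0.32, with 5 of the 29 positive. There 0 rose and 6 fell, where 2.26% of all genes fell, so the interaction counts also hold falls in non-hair cells.

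**Figure D5:**
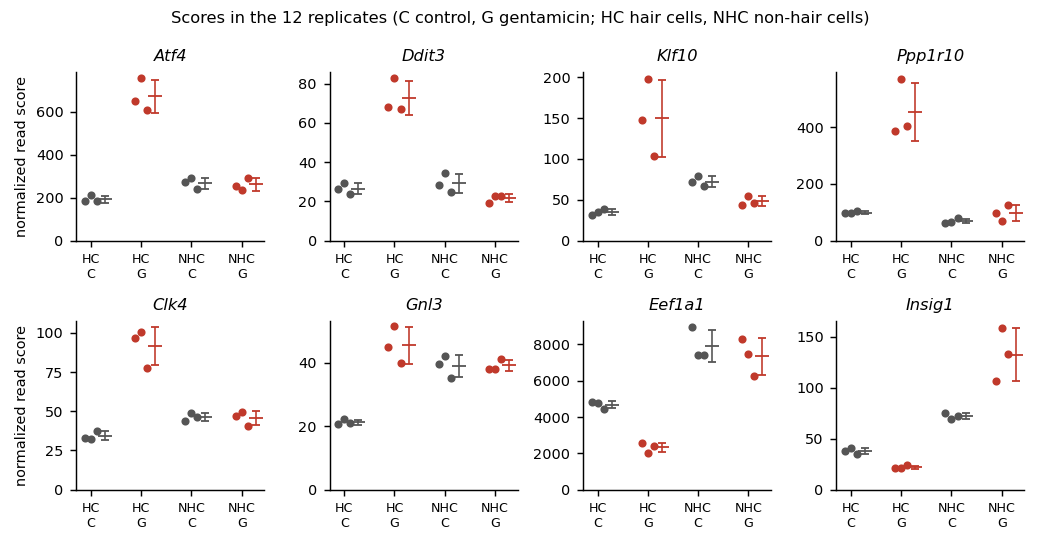
Normalized read number (vertical axes, from 0) of 8 genes in the 3 replicates of each group, HC or NHC, control (C, grey) or gentamicin (G, red), with the mean and SD beside the points. Atf4, Ddit3, Klf10, Ppp1r10, Clk4 and Gnl3 are higher and Eef1a1 and Insig1 lower in all treated hair cell replicates, and Insig1 is higher in all treated non-hair cell replicates.

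Most immediate early genes were lower, with 24 of 30 having a negative log2 fold change, and 3 rose. These genes are induced within minutes of many stimuli, tissue handling among them. Klf10, a Krüppel-like factor induced by TGFβ, was at 32.0, 35.0 and 38.7 in HC_Control and 148, 198 and 103 in HC_Gentamicin (2.04 ± 0.19 SE, adjusted p = 5.58e-05). In non-hair cells it was at 71.2, 79.1 and 66.9 without and 43.7, 54.9 and 46.7 with gentamicin, and the interaction was 2.62 (adjusted p = 0.000652). Its paralog Klf11 rose by 1.67 (interaction 2.08). Of the 30 genes of the list 3 rose (10%, against 12.7% of all genes) and 11 fell (36.7%, against 14.8%), with a median of -0.66. The fallers included Ier3 (-1.41) and Fosb (-1.38, a call lost without HC_Control replicate 2 or 3 or HC_Gentamicin replicate 1 or 3), at 129, 242 and 230 in controls and 64.7, 87.3 and 72.7 after treatment. The number that fell dropped to 5 without HC_Control replicate 2 and likewise without HC_Gentamicin replicate 3. Of the 11, 9 were non-hair cell genes. In non-hair cells the median of the list was -0.57, 0 of the 30 had a positive log2 fold change, and 0 rose and 3 fell. The response was higher in hair cells by the interaction test for 4 of the 30, where 6.85% of all genes were, and lower for 0. Among 15 MAPK phosphatases and Sprouty genes 3 rose (20%), led by the phosphatases Dusp8 (2.29) and Dusp16 (0.85). Another 3 fell (20%), led by the growth factor feedback inhibitors Spry4 (-1.19) and Dusp6 (-1.05, a call kept in 3 of 6 fits that left out a replicate). Without HC_Control replicate 2, 1 fell.

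Sterol synthesis genes moved in opposite directions in the 2 populations. Of 23 genes tested, 7 fell (30.4%, against 14.8% of all genes) and 0 rose in hair cells (median -0.21). In non-hair cells 18 rose, where 3.18% of all genes did, and 0 fell (median 0.58). The response was lower in hair cells by the interaction test for 19 of the 23 and higher for 0, where 6.57% of all genes were lower. Between 14 and 18 were lower in fits that left out a hair cell replicate. Insig1, the membrane protein that restrains SREBP activation and is itself an SREBP target, was at 38.2, 40.9 and 35.2 in HC_Control and 21, 21.7 and 23.9 in HC_Gentamicin (-0.78 ± 0.12 SE, adjusted p = 0.000932). It was at 75.3, 69.0 and 71.9 in NHC_Control and 106, 159 and 133 in NHC_Gentamicin, and the interaction was -1.64 (adjusted p = 0.000815). Mvd, a mevalonate pathway enzyme, gave -0.58 in hair cells and 0.42 in non-hair cells (interaction -0.996, adjusted p = 0.0133), and its call in hair cells was lost without HC_Control replicate 1 or 2 or HC_Gentamicin replicate 2. Srebf2, which encodes SREBP2 and was chosen after its values were seen, had a log2 fold change of -0.45 in hair cells and 0.31 in non-hair cells. Fewer members fell in hair cells when a replicate was left out (3 to 7) or when scaled by the total (4). Of 11 fatty acid synthesis genes 0 passed the criteria by limma, and 5 had an unadjusted p under 0.05.

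Chaperones and folding enzymes of the endoplasmic reticulum were lower. Of 30 genes, 10 fell (33.3%) and 0 rose, with a median of -0.28, and in non-hair cells the median was 0.01. Hsp90b1, the chaperone GRP94, was at 1043, 916 and 869 in HC_Control and 667, 557 and 585 in HC_Gentamicin (-0.64 ± 0.11 SE, adjusted p = 0.00118). The disulfide isomerase gene Pdia4 was at 133, 117 and 118 in controls and 70.3, 47.5 and 97.2 in treated cells (-0.84 ± 0.21 SE). Leaving out a replicate left 6 to 9 lower, and scaling by the total left 6 lower and 2 higher. The promoters of both genes are printed in the same way, with the word CCAAT or its complement in capitals, since CCAAT boxes are part of the endoplasmic reticulum stress element. They lie at chr6:47813513-47813632 and chr10:86705445-86705564, both on the minus strand.
Pdia4: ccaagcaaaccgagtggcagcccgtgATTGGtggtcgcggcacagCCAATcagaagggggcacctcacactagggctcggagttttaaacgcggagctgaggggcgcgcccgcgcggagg
Hsp90b1: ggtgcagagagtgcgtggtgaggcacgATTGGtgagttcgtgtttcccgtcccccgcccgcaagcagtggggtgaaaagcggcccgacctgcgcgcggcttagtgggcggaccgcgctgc
CCAAT was in 79.2% of the 24 matched promoters of this list and in 93.3% of the 15 of the sterol list, against 35.7% of all. It was in 34.2% of the promoters of genes that rose and 36.9% of those that fell. In lists where 0 genes fell, 83.3% of 18 mitosis and 68.4% of 19 hnRNP promoters held it. Lysosomal genes, which were lower, held it in 34.6% of 26 promoters.

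Lysosomal genes were lower. Of 34 hydrolases and membrane proteins 14 fell (41.2%) and 1 rose, and 31 had a negative log2 fold change, with a median of -0.27. The cathepsin gene Ctsb was at 160, 176 and 168 in HC_Control and 131, 101 and 121 in HC_Gentamicin (-0.52 ± 0.10 SE, adjusted p = 0.00286), and Glb1, a galactosidase, fell by 0.56, a call lost when scaled by the total and kept in 2 of 6 fits that left out a replicate. The riser was Cd68, described below. Leaving out a replicate left 10 to 15 lower, and scaling by the total left 6. Of the 14, 6 were non-hair cell genes, 7 were shared and 1 was native. Of 21 genes of the vacuolar proton pump, which acidifies these compartments, 2 fell (9.5%), Atp6ap1 (-0.33) and Atp6v0c (-0.29), and neither passed when scaled by the total. Core autophagy genes were split, with 3 of 32 higher (9.4%), including Atg14 (0.80) and Atg5 (0.50), and 3 lower (9.4%), including Ulk1 (-0.75) and Wipi1 (-0.59). Both shares were under those of all genes, 12.7% and 14.8%. Of 48 proteasome genes 4 rose (8.3%), including Psmc2 and Psmd6 (both 0.34), and 1 fell (2.1%), the thymic subunit Psmb11 (-0.42), which was chosen after its value was seen. Without HC_Control replicate 2, 1 rose, and the calls of Psmc2 and Psmd6 were kept in 4 and 2 of 6 fits that left out a replicate.

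Calls among mitochondrial energy genes were at the background. Of 78 nuclear genes of oxidative phosphorylation 12 fell (15.4%, near the background) and 0 rose, and 71 had a negative log2 fold change, with a median of -0.20. Ndufb9, a subunit of complex I, was at 114, 109 and 100 in HC_Control and 56.4, 48.8 and 51.9 in HC_Gentamicin (-1.04 ± 0.08 SE, adjusted p = 2.10e-05), and its log2 fold change was 0.11 in non-hair cells (interaction -1.15, adjusted p = 0.000652). Cox7a2l was next (-0.63). The count was 6 without HC_Gentamicin replicate 3, 7 without HC_Control replicate 2 and up to 19 without another replicate, and 6 when scaled by the total. Of 22 mitochondrial import genes 1 fell, Timm8b (-0.43), a call kept in 2 of 6 fits that left out a replicate, and when scaled by the total 3 rose and 0 fell. In polyamine metabolism Smox, spermine oxidase, was at 68.7, 65.6 and 66.3 in controls and 115, 120 and 112 in treated cells (0.79 ± 0.06 SE, adjusted p = 1.56e-05). Azin1, which stabilises ornithine decarboxylase (0.48), also rose, and Oaz2 (-0.34) and Sms (-0.31) fell, in a list of 10 with 4 higher (40%) and 2 lower (20%). When scaled by the total 0 fell, and the Sms call was kept in 2 and the Azin1 call in 3 of 6 fits that left out a replicate. Of 18 purine and pyrimidine synthesis genes 1 rose (Adsl, 0.32) and 2 fell (Uck2, -0.56, and Paics, -0.28), which is 5.6% and 11.1% of the list. The Adsl call was kept in 1 and the Paics call in 4 of 6 fits that left out a replicate, and when scaled by the total 6 rose and 1 fell.

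Genes of the genome duplication and damage machinery outside excision repair changed in small numbers. Of 34 DNA replication genes 4 rose (11.8%, against 12.7% of all genes) and 0 fell, led by the origin recognition genes Orc4 (0.86) and Orc5 (0.79). Of 19 mitosis genes, all non-hair cell genes, 2 rose (10.5%, against 12.7% of all genes) and 0 fell. The list had a median of -0.21, with 13 members negative. The 19 genes were weakly expressed, with a summed level of 48.9 to 65.4 in HC_Control. The 2 that rose were the cyclin gene Ccnb2 (1.12) and the kinase gene Aurka (0.60), chosen after their values were seen. Leaving out any 1 hair cell replicate left 1. Of 20 double-strand break repair genes 5 rose (25%) and 1 fell (5%). Rad52, a recombination protein, was at 14.5, 13.7 and 13.0 in HC_Control and 26.9, 28.8 and 26.2 in HC_Gentamicin (0.99 ± 0.10 SE, adjusted p = 7.62e-05), Nbn rose by 0.51, and the damage kinase gene Atm fell by 0.77. Of 19 p53 targets 4 rose and 1 fell, led by Gadd45g (1.33, interaction 2.12, adjusted p = 0.0066) and the kinase gene Plk3 (0.89). The faller, chosen after its value was seen, was Phlda3, an inhibitor of AKT signaling (-0.68), and 0 fell when scaled by the total. By share, 21.1% of the p53 list rose and 5.3% fell.

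Several of the strongest rises were in genes that hair cells barely expressed. Prph2, a photoreceptor membrane protein, was at 5.73, 1.09 and 1.05 in HC_Control and 15.7, 25.9 and 15.9 in HC_Gentamicin (3.32 ± 0.51 SE, adjusted p = 0.000778). Cldn15, a claudin of tight junctions, was at 1.48, 1.73 and 1.41 and then at 10.1, 12.3 and 6.99 (2.64 ± 0.20 SE). Cntf, a neurotrophic factor, rose from 1.73, 1.17 and 2 to 6.49, 9.01 and 6.68 (2.20 ± 0.20 SE), and Cd68, a lysosomal glycoprotein of macrophages, from 2.13, 2.84 and 2.34 to 13.7, 17.9 and 10.9 (2.52 ± 0.22 SE). The 7 macrophage markers summed to 3.41 to 4.56 in HC_Control and 4.29 to 5.99 in HC_Gentamicin.

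By the GENCODE M21 annotation of GRCm38, some of these genes lie just behind a well expressed gene on the same strand. Cldn15 (chr5:136966616-136975858) begins 381 bp after the end of Fis1, Cd68 (chr11:69664213-69666153) begins 782 bp after Eif4a1, and Cntf (chr19:12763660-12765632) begins within Zfp91. These neighbors did not pass the criteria, with log2 fold changes of -0.15 for Fis1, 0.14 for Eif4a1 and 0.13 for Zfp91. Prph2 begins 18611 bp after Tbcc and Creb5 520489 bp after its nearest upstream neighbor. Among 3601 tested genes with a position and a control mean under 5, 16.5% began within 5000 bp of the end of a protein-coding gene on the same strand. Among the 213 of them that rose the share was 31.5%, among the 55 that rose by more than 2-fold it was 38.2%, and among the 277 that fell it was 13.0%. Over genes of all levels it was 15.8%, and 15.6% of those that rose. The distance of 5000 bp was chosen after these values were seen, and transcription past the end of the upstream gene was not tested. Counting is not stated to use the strand, so reads of overlapping genes cannot be told apart.

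Of the other shared genes with the largest changes, Gm16973 rose from 10.2, 8.23 and 9.90 to 48.4, 55.2 and 41.7 (2.36 ± 0.13 SE, adjusted p = 5.16e-06). Procr, the endothelial protein C receptor gene, fell from 7.04, 6.09 and 6.58 to 1.87, 1.79 and 1.64 (-1.89 ± 0.18 SE) and had a log2 fold change of 0.86 in non-hair cells (interaction -2.76, adjusted p = 0.000355). The alarmin gene Il33 (-1.72) and Hes5, a transcriptional repressor (-2.02), also fell. The calls of Myh7b (-1.82) and Igfbpl1 (-1.66) were lost in fits that left out a replicate, HC_Gentamicin replicate 3 among them. Non-hair cell genes that rose were led by Creb5, a transcription factor of the CREB family, at 4.53, 4.39 and 4.74 in HC_Control and 23.5, 37.5 and 27.1 in HC_Gentamicin (2.66 ± 0.19 SE). Behind Creb5, Cd68 and Klf10 came Snhg12, a host gene of small nucleolar RNAs (1.70), Flrt3 (1.69) and the bradykinin receptor gene Bdkrb2 (1.57).

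Genes of surrounding tissue fell as well. Of 43 collagen genes 19 fell (44.2%, against 14.8% of all genes) and 0 rose, and 18 of the 19 were non-hair cell genes. Col6a3 was at 21.8, 50.8 and 21.3 in HC_Control and 8.75, 11.4 and 8.41 in HC_Gentamicin (-1.61 ± 0.28 SE), and Col5a2 at 19.3, 52.9 and 24.6 and then 9.04, 9.08 and 12.5 (-1.54 ± 0.33 SE). HC_Control replicate 2 was the highest for both, and without it 13 collagens fell. Spp1, osteopontin (-2.05), also peaked in that replicate, at 86.0. The growth factor binding protein gene Igfbp2 (-1.84) and the collagen crosslinking enzyme gene Loxl2 (-1.94) had their lowest values, 11.4 and 5.25, in HC_Gentamicin replicate 3, and the Igfbp2 call was kept in 1 of 6 fits that left out a replicate and lost when the hair cell groups were fitted alone. Of 12 cytokine and chemokine genes 2 fell (16.7%), Cxcl12 (-1.31) and Csf1 (-0.50, chosen after its value was seen), and 0 rose. Of 10 supporting cell genes 1, the connexin gene Gjb2 (-0.77), fell, with treated values of 298, 156 and 309 against 411, 355 and 487, and all 10 had a negative log2 fold change. The Gjb2 call was lost when scaled by the total and when the hair cell groups were fitted alone, and was kept in 3 of 6 fits that left out a replicate. Of 26 tight junction genes 3 rose (11.5%, against 12.7% of all genes), Cldn15 among them, and 0 fell. Without HC_Gentamicin replicate 2, 1 rose.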

How the data were processed

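The authors trimmed 50 bp single-end reads at a quality score of at least 25, aligned them to mm10 with TopHat 2 in PartekFlow and deposited a normalized score per gene and replicate. Their methods speak of RPKM, but the deposited score carries no length division. It is reads scaled per replicate with 1 added, and 73.5–75.2% of low values were whole reads within 0.02 reads. The scaling is not given in the sources used here. Of 23420 genes, 16081 with at least 100 recovered reads over 12 replicates were tested. Log2 scores of 4 groups were fitted together in limma 3.58.1 (R 4.3.3), with empirical Bayes moderation and a trend. Python 3.11.15, pandas 2.3.3, numpy 2.4.6 and matplotlib 3.10.9 were used for tables and figures. Responses of both populations were compared by an interaction term, called below an adjusted p of 0.05. The procedure was tested on simulated data.

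Members, lists and promoter words were chosen with earlier results of these data known, so list counts are read only beside the share over all genes. Named genes were, per origin class and direction, the 6 largest changes without overlap whose higher group averaged 5 or more, per list the 2 largest in each direction, and Atoh1, Myo6 and Myo7a. The initiation factor list excludes Argonaute genes with Eif2c symbols, a change made after values were seen. Brix1, Rpf1, Nop58, Rpl34, Rpl30, Asns, Chac1, Trib3, Car9, Slc16a3 and Pgk1 were also chosen after values were seen. A list of mitochondrially encoded genes matched 0 symbols and was not analysed here. Replicate numbers of the hair cell groups were checked for pairing. A few genes that the naming rule selected are not reported here.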

Additional observations from a re-analysis of the deposited data

Results flagged for a closer look

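Among 148 named genes 77 had an interaction at an adjusted p under 0.05 with limma, and for 37 of those that changed in hair cells the responses of hair cells and non-hair cells had opposite signs. For 11 of these the non-hair cell change was also over 1.2-fold in size, and they are given here. The values are the log2 fold change in hair cells minus that in non-hair cells. Hair cells rose and non-hair cells were lower for Dusp8 (2.93), Klf10 (2.62), Bdkrb2 (2.13), Gadd45g (2.12), Klf11 (2.08), Snhg12 (1.98) and Ddit3 (1.88). Hair cells fell and non-hair cells were higher for Procr (-2.76), Htr2a (-2.38), Insig1 (-1.64) and Mvd (-0.996). Not all of these non-hair cell changes passed the criteria, and those of Dusp8, Klf10, Snhg12 and Htr2a did not. In non-hair cells Htr2a was near 1, the value of a gene without reads, at 1.29 to 1.87 without and 1.52 to 2.30 with gentamicin. Groups of 3 replicates were not tested for outlying samples.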

How the results depend on the processing

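Of 148 named genes, 87 kept their call under every alternative that could be applied to them and 61 changed it under some (43 at a fold change above 1.5 and 38 in other fits, with overlap), and 0 signs turned among genes that had passed. The 4418 changed genes became 3288 to 4133 when 1 hair cell replicate was left out, and 2074 (855 higher and 1219 lower) at a fold change above 1.5. The 2158 genes with an interaction became 1160 to 2377 when a hair cell replicate was left out, 1160 without HC_Control replicate 2, 1254 without HC_Gentamicin replicate 2 and 1374 without HC_Control replicate 1. Native and non-hair cell genes numbered 949 and 1557 at a log2 difference of at least 2. With the replicate number as a block 4618 genes changed. With the hair cell groups fitted alone 5061 genes changed (2141 higher and 2920 lower). Same-numbered replicates of HC_Control and HC_Gentamicin correlated by 0.037, 0.052 and 0.037, so the numbers were not taken to pair these samples. Pairing of hair cell with non-hair cell replicates was not checked. Scaling by the total turned the medians of stereocilia (0.01), ribbon synapse (0.03), cilium (0.06), p53 (0.04), proteasome (0.09) and tight junction genes (0.05) positive. With 3 replicates per group, values of weakly expressed genes rest on few reads and are imprecise.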
